A study of Mus musculus with 24 samples.

Results

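The early response to IFNγ was measured at day 2 of reprogramming, as the expression of 15697 of the 37315 genes of the series in 4 of its 24 RNA-seq libraries. These genes had a mean normalized count above 10 over 2 libraries of control cells and 2 libraries of IFNγ-treated cells, where a normalized count is the number of reads on a gene divided by the size factor of its library. The cells came from PaX, a hybrid 129S1/SvImJ × CAST/EiJ ESC line. The line carries a doxycycline-inducible MKOS cassette (c-Myc, Klf4, Oct4 and Sox2) with rtTA in the Sp3 locus, X-GFP in the Hprt locus of X mus (the 129 X chromosome), a Tsix truncation that makes X mus the preferred inactive X, and a Nanog promoter-RFP reporter, and both groups share all of these. NPCs made from this line received doxycycline and ascorbic acid from 1 day earlier and were seeded on male irradiated MEF feeders, stained with CFSE, in iPSC medium with LIF, ascorbic acid and doxycycline. IFNγ at 10 ng/ml was present from day 0 in the treated group and absent in the control group. At day 2, cells negative for CFSE were sorted without selection for SSEA1. The study's methods call its RNA-seq replicates independent, but neither they nor the labels state separate cultures for these libraries, so p-values measure the spread between these libraries, which may be technical. All values come from 1 line, and fewer cells of a type and less RNA per cell cannot be told apart in bulk RNA.

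IFNγ binds a receptor made of Ifngr1 and Ifngr2 chains, whose kinases Jak1 and Jak2 phosphorylate STAT transcription factors. STAT dimers bind GAS elements in promoters of genes such as Irf1 and Irf8, and IRF proteins then bind ISRE elements. The genes reached in this way encode guanylate-binding proteins and other GTPases that defend cells against intracellular pathogens, the MHC antigen presentation machinery, chemokines and antiviral effectors, and the inhibitor SOCS1, which closes the loop.

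The promoters of 6 genes are shown because they hold letters of these elements and because these genes differed in how they responded. Irf1 and Irf8 are transcription factors of the response, Socs1 its inhibitor, Igtp an immunity-related GTPase, and Rsad2 and Isg15 antiviral genes. They were chosen after their values were seen and are given as 250 bases before the annotated start (RefSeq, GRCm38.p6), 5′ to 3′ on the strand of the gene. Capitals mark TTCNNNGAA, a core of GAS elements that reads the same on both strands, and the core of ISRE elements, searched as GAAA, any 2 bases and GAAA again on either strand (TTTC, any 2 bases and TTTC on the other). Matches may overlap each other.
Irf1 (chr11:53769764-53770013, plus strand): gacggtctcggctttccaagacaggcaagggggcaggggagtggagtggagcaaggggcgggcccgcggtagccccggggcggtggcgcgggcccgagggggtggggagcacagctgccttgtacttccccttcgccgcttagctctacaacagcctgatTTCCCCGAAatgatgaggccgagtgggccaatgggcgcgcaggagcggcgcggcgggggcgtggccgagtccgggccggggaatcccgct
Irf8 (chr8:120736108-120736357, plus strand): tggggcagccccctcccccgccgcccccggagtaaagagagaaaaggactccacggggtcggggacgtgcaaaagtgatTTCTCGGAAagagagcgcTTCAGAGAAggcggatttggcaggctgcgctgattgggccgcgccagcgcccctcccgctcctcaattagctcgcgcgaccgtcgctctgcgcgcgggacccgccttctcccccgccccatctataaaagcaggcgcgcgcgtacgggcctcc
Socs1 (chr16:10785537-10785786, minus strand): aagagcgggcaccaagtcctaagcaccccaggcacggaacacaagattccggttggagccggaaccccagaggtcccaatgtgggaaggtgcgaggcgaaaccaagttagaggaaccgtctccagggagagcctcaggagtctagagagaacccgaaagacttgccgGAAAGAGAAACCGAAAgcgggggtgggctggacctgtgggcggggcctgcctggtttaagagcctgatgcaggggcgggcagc
Igtp (chr11:58199306-58199555, plus strand): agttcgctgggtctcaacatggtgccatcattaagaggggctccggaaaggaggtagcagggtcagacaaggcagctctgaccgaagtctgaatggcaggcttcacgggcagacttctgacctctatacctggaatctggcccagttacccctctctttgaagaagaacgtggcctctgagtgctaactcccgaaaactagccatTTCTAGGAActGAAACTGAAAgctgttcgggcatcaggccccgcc
Rsad2 (chr12:26456453-26456702, minus strand): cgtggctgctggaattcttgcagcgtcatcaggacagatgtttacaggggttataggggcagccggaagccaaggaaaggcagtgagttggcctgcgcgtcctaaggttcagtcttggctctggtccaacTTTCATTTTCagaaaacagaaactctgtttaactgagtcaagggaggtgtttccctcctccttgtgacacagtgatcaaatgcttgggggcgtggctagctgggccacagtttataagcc
Isg15 (chr4:156200819-156201068, minus strand): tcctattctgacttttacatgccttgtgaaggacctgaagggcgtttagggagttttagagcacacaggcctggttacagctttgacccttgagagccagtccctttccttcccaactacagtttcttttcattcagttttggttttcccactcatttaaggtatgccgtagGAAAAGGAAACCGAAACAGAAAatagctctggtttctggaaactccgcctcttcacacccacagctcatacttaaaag
No annotated exon overlapped these windows. The match in Irf1 began 90 bases before the start, and the matches in Irf8 began 171 and 153 bases before it. Igtp held both kinds of match, TTCTAGGAA at −45 and GAAACTGAAA at −34, 11 bases apart. Socs1 and Isg15 held only the ISRE core, Socs1 with 2 overlapping matches and Isg15 with 3. Rsad2 held 1 match on the opposite strand. Over all 32851 promoters of the RefSeq table, 7.02% held TTCNNNGAA and 2.98% held the ISRE core in the 250 bases before the start. A match is a description of letters and not evidence of binding. Irf1 and Irf8 each have another annotated start in the table, whose window held neither motif.

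IFNγ raised 790 of the 15697 genes and lowered 542 (limma, Benjamini-Hochberg adjusted p under 0.1), which is 5.03% and 3.45% of the genes tested and 8.49% in either direction. Of the genes that rose, 301 had a log2 fold change above 1, 97 above 3 and 38 above 5, whereas 75 of the genes that fell had one under −1 and 1 had one under −2. The median log2 fold change was 0.70 among genes that rose, −0.45 among genes that fell and 0.0054 over all genes tested. Both IFNγ libraries lay above both control libraries in all 790 and below them in all 542, an order that 26% and 25.1% of all genes tested showed. On the reads recovered from the same values, DESeq2 called 4.17% of genes higher and 2.94% lower, and edgeR 4.99% and 3.57%. Genes that rose took 2.90% and 2.96% of the normalized counts in the control libraries and 5.52% and 5.65% in the IFNγ libraries, and the 10 largest gains made up 27.9% of the total gain. The filter was passed only through the IFNγ group by 207 genes, of which 65 rose, and only through the control group by 143 genes, of which 7 fell. Fewer genes were called with 3 libraries. The counts of genes higher and lower were 471 and 170 without control 1, 498 and 203 without control 2, 595 and 378 without IFNγ 1, and 476 and 209 without IFNγ 2. The libraries held 26661831 to 29273969 reads on genes, of which 17.0% to 18.7% were mitochondrial. As a check of the cell label, Pou5f1, the cassette's Oct4, stood at 8739 and 8204 in control cells and at 2.92 and 5.27 in NPCs, and Nes, the nestin gene of neural progenitors, at 9423 and 11667 in control cells and 22302 and 22866 in NPCs.

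**Figure D1:**
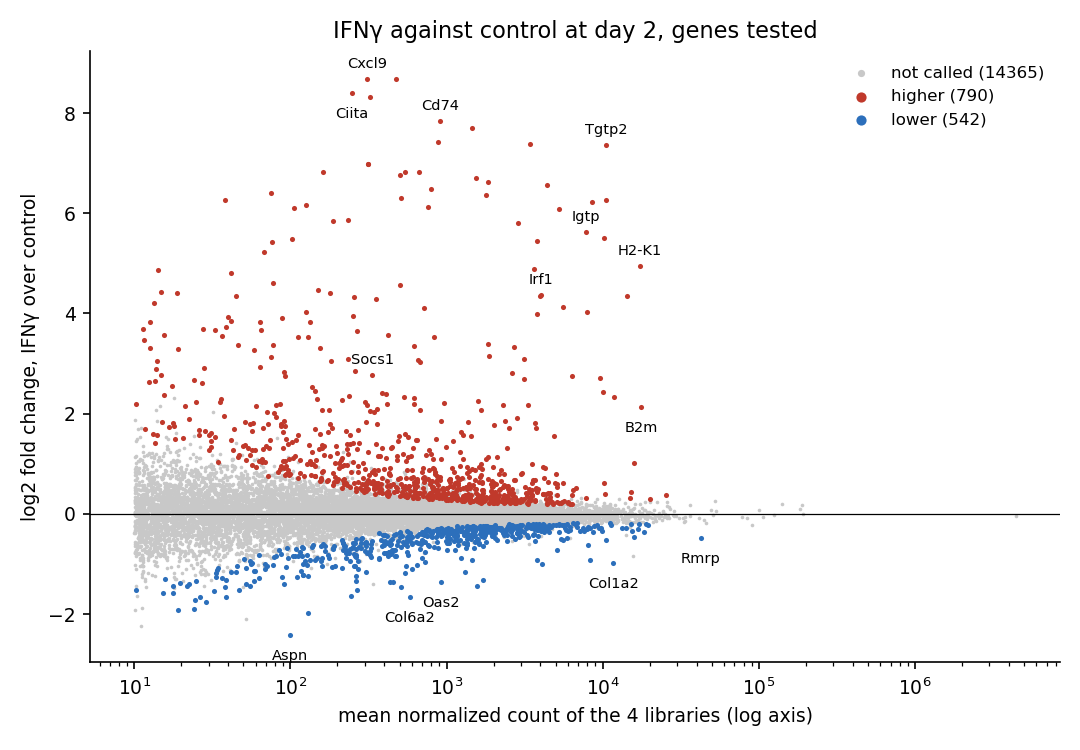
Log2 fold change of IFNγ over control at day 2 (vertical axis) against the mean normalized count of the 4 libraries (horizontal axis, log scale). Each point is a gene, with 790 genes called higher in red, 542 called lower in blue and the rest in gray. The red points reach 8.69 (Cxcl9), and the blue points reach −2.41 (Aspn).

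In what follows, per-library values are normalized counts given in the order control 1, control 2, IFNγ 1 and IFNγ 2. Fold changes are log2 of IFNγ over control on log2(normalized count + 1) ± SE with n = 2 libraries per group, and adjusted p-values are from limma over all genes tested. A gene is said to rise or fall only if it passed this test. Counts of list members are to be read beside the shares over all genes tested, of which 5.03% rose and 3.45% fell. Some members that rose had a control mean of at most 10 and were tested only through the IFNγ group. Such members enter a list count by their own rise. Where 4 counts of list members are given for single libraries left out, their order is without control 1, control 2, IFNγ 1 and IFNγ 2. In the lists below whose members are said to include none that fell by limma, DESeq2 called 1 complement gene lower and edgeR 1 constitutive proteasome gene. At an unadjusted p under 0.05, 2 checkpoint and adhesion genes and 1 each of the JAK-STAT, complement and constitutive proteasome genes were lower, and 0 of the GBP, IRG, IRF, class I, class I processing, chemokine, sensor, NF-κB and cholesterol genes.

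**Figure D2:**
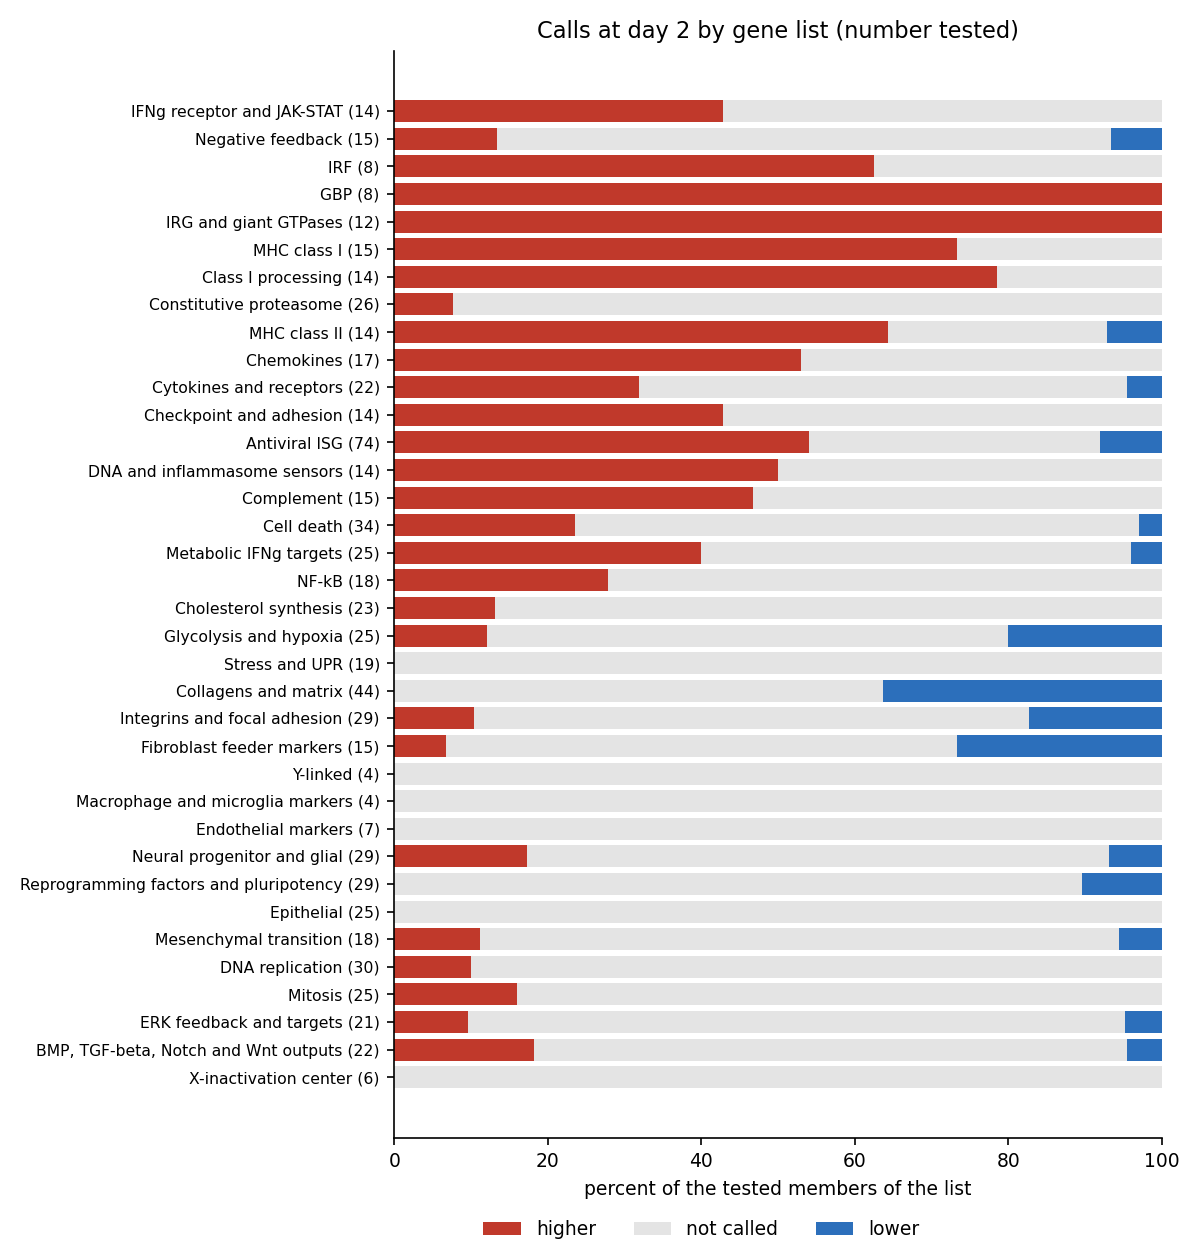
Share of the tested members of each gene list that were called higher (red), lower (blue) or not called (gray) at day 2, in percent, with the number tested in parentheses. The lists of GBP and IRG genes are red throughout with 8 of 8 and 12 of 12 members, and the list of collagens and matrix has the most lower members, 16 of 44.

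Signaling components responded unevenly along the pathway. Of 14 receptor and JAK-STAT genes, 6 rose and none fell (3, 4, 4 and 3 rose with 1 library left out). The receptor chains Ifngr1 and Ifngr2 were not called, with means of 721 in control and 577 under IFNγ for Ifngr1 and 230.5 and 230.1 for Ifngr2. Ifngr1 was close to the threshold (-0.32 ± 0.086, adjusted p = 0.102), with both IFNγ libraries below both control libraries. Jak1, the kinase of the ligand-binding chain, was not called either (2614 and 2575), whereas Jak2, the kinase of the accessory chain, stood at 2015 and 2099 in control and 2594 and 2593 under IFNγ (0.33 ± 0.056, adjusted p = 0.024). Stat2, which serves the type I interferon complex, read 939 and 868 in control and 3059 and 3165 under IFNγ (1.78 ± 0.067, adjusted p = 2.5e-05). The Stat2 libraries of the groups were far apart. Stat3 rose by 0.62, Stat5b by 0.44 and the type I interferon receptor chain Ifnar2 by 0.44. Stat4, Stat5a and Stat6 were not called. A fit of all 24 libraries, or of values rescaled to equal totals, had 1 gene of this list lower. With 1 library left out, calls were lost for Jak2 (control 1 or IFNγ 2, adjusted p up to 0.11), Ifnar2 (any library, adjusted p up to 0.33) and Stat5b (any library, adjusted p up to 0.13).

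Feedback genes went in both directions. Socs1, whose protein blocks JAK kinases, read 89.6 and 79.4 in control and 583 and 586 under IFNγ (2.78 ± 0.13, adjusted p = 8.0e-05). Socs3, the inhibitor of LIF and IL-6 receptor signaling, read 2996 and 2524 in control and 4697 and 4094 under IFNγ (0.67 ± 0.10, adjusted p = 0.017). Usp18, the ISG15-specific protease that also blocks the type I interferon receptor, instead fell and read 1709.8 and 1925 in control and 736 and 905 under IFNγ (-1.15 ± 0.11, adjusted p = 0.0029), compared with 5.83 and 13.2 in NPCs. The other 12 of 15 feedback genes, including Cish, Ptpn2 and Pias1, were not called.

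Among 8 tested IRF genes, 5 rose and none fell (4, 3, 3 and 3 rose with 1 library left out). Irf8, best known from myeloid cells, read 26.5 and 29.8 in control and 3045 and 3032 under IFNγ (6.71 ± 0.12, adjusted p = 5.5e-07). Irf1, the primary IRF of IFNγ signaling, read 424 and 327 in control and 7947 and 7484 under IFNγ (4.37 ± 0.12, adjusted p = 5.2e-06). Irf7, the regulator of type I interferon genes, read 145 and 151 in control and 340.3 and 463 under IFNγ (1.42 ± 0.17, adjusted p = 0.0074). In all 3 genes both IFNγ libraries lay above both control libraries. Irf8 had the larger fold change, but per kilobase of exon the level of Irf1 under IFNγ was 1941 normalized counts against 431 for Irf8. Irf2, a repressor related to Irf1, rose by 0.59 and Irf9, a DNA-binding partner of STAT2, by 0.22 (adjusted p = 0.094), which did not pass with DESeq2, with all 24 libraries in the fit or with values rescaled to equal totals. Calls were also lost with 1 library left out for Irf2 (control 2, IFNγ 1 or IFNγ 2, adjusted p up to 0.21) and Irf9 (any library, adjusted p up to 0.44). Batf2, an AP-1 family partner of IRF proteins, had 1 and 3 reads in the control libraries and 662 in both IFNγ libraries together, a ratio of 158 (95% counting interval 61.5 to 583).

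**Figure D3:**
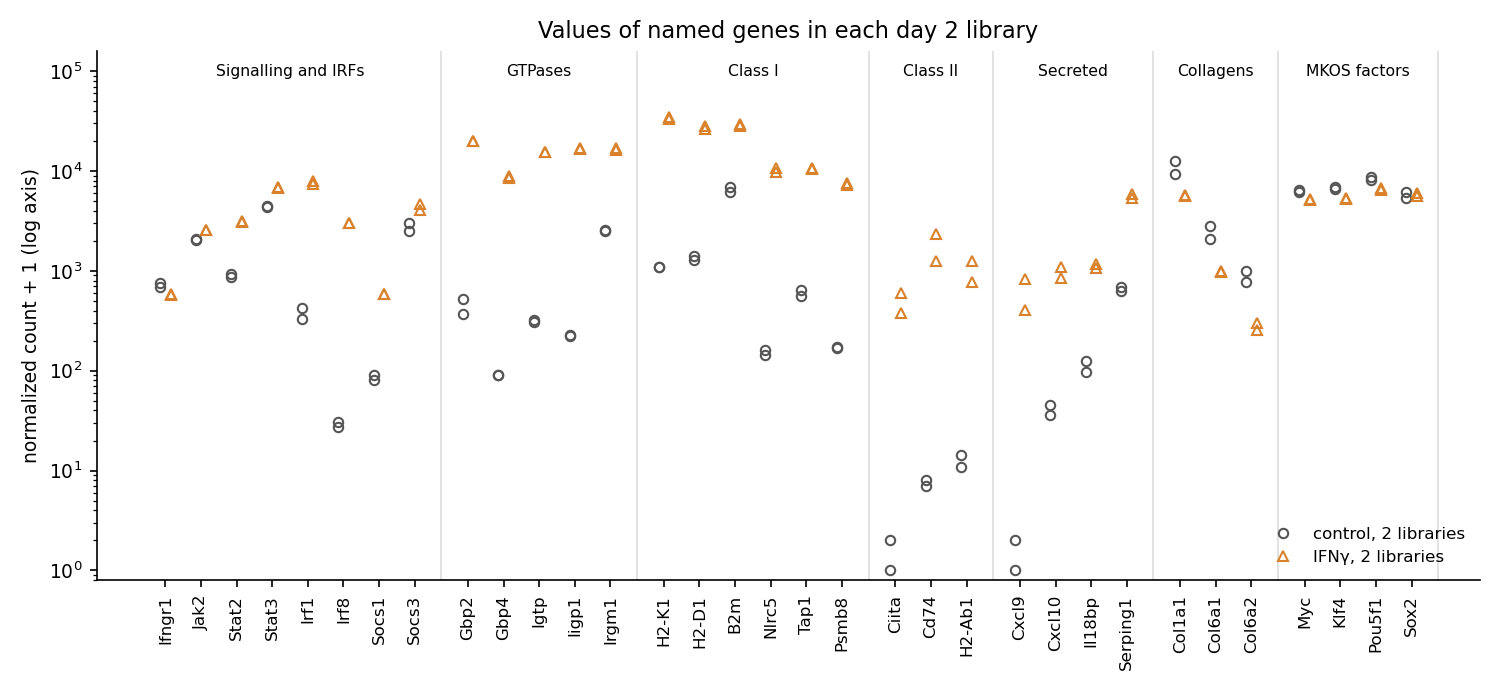
Normalized count + 1 (log axis) of named genes in each day 2 library, with 2 control libraries as gray circles and 2 IFNγ libraries as orange triangles, grouped by role. The groups are apart for Irf1, Irf8 and the GTPase, class I and class II genes shown, the IFNγ libraries lie below control for the 3 collagens, Myc, Klf4 and Pou5f1, and the groups overlap for Sox2.

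The GTPases that attack vacuoles of intracellular pathogens rose in every member tested. All 8 tested guanylate-binding protein genes rose (median log2 fold change 6.04), and 3 others of the list, Gbp5, Gbp6 and Gbp10, could not be matched by symbol. Some tested IDs had no symbol, and a list member may be among them. Of these, ENSMUSG00000028269, had 1 of the largest gains, and read 329 and 217 in control and 21663 and 19682 under IFNγ (6.27 ± 0.18, adjusted p = 5.9e-06). Gbp2b had 1 read in each control library and read 581 and 713 under IFNγ, a ratio of 642 (95% counting interval 177 to 5308). Gbp4 read 90.6 and 90.3 in control and 8541 and 8823 under IFNγ (6.57 ± 0.071, adjusted p = 7.3e-08), and Gbp8 read 7.13 and 11.9 in control and 1799.5 and 1717 under IFNγ (7.42 ± 0.24, adjusted p = 1.1e-05). Both started from low values, whereas 2 other members were well expressed in control cells. Gbp3 read 1463 and 1831 in control and 10586 and 11469 under IFNγ (2.75 ± 0.11, adjusted p = 3.0e-05), and Gbp7 read 897 and 938 in control and 14804 and 15036 under IFNγ (4.02 ± 0.053, adjusted p = 1.7e-07). Gbp9 rose by 3.15, Gbp11 by 6.98 and Gbp2 by 5.51.

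The IRG family and its giant relatives followed the same count, with 12 of 12 tested members higher and a median of 5.72. Igtp (Irgm3), one of the regulatory members, read 303 and 318 in control and 15326 and 15337 under IFNγ (5.62 ± 0.057, adjusted p = 6.6e-08). Irgm1, a regulator on host membranes, was already at 2524 and 2572 in control cells and reached 17139 and 16271 (2.71 ± 0.052). Among effectors that load onto pathogen vacuoles, Iigp1 read 223 and 226 in control and 16782 and 16864 under IFNγ (6.22 ± 0.056, adjusted p = 6.6e-08) and Tgtp2 read 120.2 and 133 in control and 20422 and 21625 under IFNγ (7.37 ± 0.074, adjusted p = 6.6e-08). Per kilobase of exon, levels under IFNγ were 7884 for Gbp2, 7582 for Igtp, 7156 for Tgtp2, 2889 for Iigp1 and 2875 for Irgm1. Ifi47 rose by 5.81, Irgm2 by 4.34, Gm12250 by 7.38 and Gm4951 by 6.63. Near-identical paralogs such as Tgtp1 and Tgtp2, or neighboring Gbp genes, can split shared reads, so the values of single members are uncertain. Both GTPase counts stayed at 8 and 12 under every alternative tried.

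MHC class I genes, which display peptides to CD8 T cells, rose in 11 of 15 tested members with none lower (median 3.40). H2-K1 read 1082 and 1089 in control and 34407 and 32926 under IFNγ (4.95 ± 0.051, adjusted p = 6.6e-08). H2-D1 read 1404 and 1283 in control and 27915 and 26515 under IFNγ (4.34 ± 0.063, adjusted p = 2.3e-07), and the light chain B2m read 6878 and 6229 in control and 29543 and 28131 under IFNγ (2.14 ± 0.065, adjusted p = 8.5e-06). Of the nonclassical genes, H2-Q7 had the largest fold, with 13.2 and 12.9 in control and 2888 and 2953 under IFNγ (7.70 ± 0.13, adjusted p = 4.3e-07). H2-Q4, H2-Q6, H2-T22, H2-T23, H2-T10 and H2-M3 rose by 2.93 to 6.99. H2-Q5 had 2 reads in both control libraries together and 308 in both IFNγ libraries, a ratio of 147 (95% counting interval 40.4 to 1222). H2-T24, H2-Bl, Cd1d1 and Mr1, the last 2 of which present lipids and vitamin metabolites, were not called. The H2 genes are alike in sequence, so reads may be split among them.

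Genes that make and load the peptides rose in 11 of 14. Nlrc5, the transactivator of class I genes, read 162 and 143 in control and 9886 and 10792 under IFNγ (6.08 ± 0.087, adjusted p = 2.3e-07). The immunoproteasome subunits rose by 6.37 (Psmb9), 5.45 (Psmb8) and 2.69 (Psmb10), and Psmb8 read 172 and 167 in control and 7270.1 and 7599 under IFNγ. The peptide pump subunit Tap1 read 646 and 561 in control and 10458 and 10731 under IFNγ (4.14 ± 0.078, adjusted p = 7.8e-07), and Tap2 rose by 3.53. The proteasome activator genes Psme1 and Psme2 rose by 2.16 and 2.16, the peptide trimmer Erap1 by 1.71, and the loading factors Tapbp and Tapbpl by 1.81 and 4.28. The general chaperones of the same list, Calr, Canx and Pdia3, were not called. By comparison, 2 of 26 constitutive proteasome genes rose, Psmb2 by 0.37 and Psma2 by 0.22 (2, 1, 1 and 1 rose with 1 library left out). The call of Psma2 was lost without any of the 4 libraries (adjusted p up to 0.28). The constitutive counterparts of the induced catalytic subunits, Psmb5, Psmb6 and Psmb7, were not called, with means of 559, 4068 and 4876 in control and 613, 4406 and 5003 under IFNγ. The class I counts did not change with any 1 library left out or with DESeq2 or edgeR.

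MHC class II genes, normally a trait of professional antigen-presenting cells, rose from near the detection limit. Of 14 tested members, 9 rose and 1 fell. Among those that rose, Ciita, Cd74, H2-Aa, H2-Eb1, H2-Eb2, H2-DMb1 and H2-DMb2 had control means of 0.50 to 8.06. They passed the filter only through the IFNγ group. The count and the median of the list therefore rest largely on members admitted by their own rise. H2-Ab1 and H2-DMa, which also rose, had control means of 11.6 and 77.0. Ciita, the transactivator of the family, had 1 and 0 reads in the control libraries and stood at 606 and 378 under IFNγ, a ratio of 985 (95% counting interval 176 to 38944). Cd74, the invariant chain, read 7.13 and 5.96 in control and 2359 and 1257 under IFNγ (7.84 ± 0.31, adjusted p = 3.0e-05). H2-Ab1 read 13.2 and 9.93 in control and 1263 and 767 under IFNγ (6.30 ± 0.28, adjusted p = 5.7e-05), and H2-Eb1 read 9.17 and 6.95 in control and 1212 and 789 under IFNγ (6.77 ± 0.26, adjusted p = 3.0e-05). The IFNγ libraries differed from each other in all 4 genes, with replicate 1 above replicate 2, and both lay far above the control libraries. The peptide exchange gene H2-DMa read 86.6 and 67.5 in control and 446 and 350.3 under IFNγ (2.36 ± 0.19, adjusted p = 0.0013). The median log2 fold change of the list was 4.02, and 3.07 with genes at or under 3 control reads set to that floor. Rfx5, Rfxank and Rfxap, which bind class II promoters, were not called. Ifi30, a lysosomal thiol reductase of antigen processing, read 1373 and 1129.5 in control and 865 and 659 under IFNγ and fell (-0.72 ± 0.15, adjusted p = 0.049), a call lost without control 1 (adjusted p = 0.21). DESeq2 called 7 of the members higher. Macrophages and microglia express class II genes, and the summed normalized counts of 13 of their markers were 293 and 250 in control and 222 and 342 under IFNγ, with overlapping groups. At most 1 of the 13 was at 0 in any of these libraries, and 9, among them Ptprc, Csf1r, Aif1 and Spi1, did not reach the filter. Of the 4 markers tested, none was called by limma, DESeq2 or edgeR and none had an unadjusted p under 0.05. The sums of 8 endothelial markers were 993 and 858 in control and 966 and 827 under IFNγ, and of the 7 tested, 0 were called by any of the 3 tools and 0 had an unadjusted p under 0.05. Which cells held the class II RNA was not tested.

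Chemokine genes rose in 9 of 17 tested members with none lower, and 9 others did not reach the filter. Fewer rose with any 1 library left out, and DESeq2 called 7 higher, without Ccl5 and Cxcl16. All 3 ligands of CXCR3 were among those that rose. Cxcl9, Cxcl11, Cxcl16 and Ccl5 had control means of 0.51 to 6.58 and passed the filter only through the IFNγ group. The count therefore rests partly on members admitted by their own rise. Cxcl9 had 1 and 0 reads in control and stood at 409 and 835 under IFNγ, a ratio of 1226 (95% counting interval 220 to 48463). Cxcl10 read 44.8 and 34.7 in control and 841 and 1099 under IFNγ (4.57 ± 0.20, adjusted p = 4.9e-05), and Cxcl11 read 7.13 and 3.97 in control and 424 and 317 under IFNγ (5.85 ± 0.32, adjusted p = 1.6e-04). Ccl8 rose by 3.13, and Ccl2, the monocyte attractant, read 617 and 510.2 in control and 863 and 1294 under IFNγ (0.91 ± 0.19, adjusted p = 0.052). Ccl5, Cxcl16, Ccl11 and Cx3cl1 also rose. Of these calls, those lost with 1 library left out were Ccl2 (control 1 or control 2, adjusted p up to 0.21), Ccl11 (control 1, control 2 or IFNγ 2, adjusted p up to 0.26) and Cx3cl1 (control 1 or IFNγ 1, adjusted p up to 0.15). The neutrophil attractants Cxcl1 and Cxcl5 were not called, with means of 228 and 955 in control and 271 and 674 under IFNγ.

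Of 22 tested cytokines and cytokine receptors, 7 rose and 1 fell. Il18bp, a secreted trap for IL-18, read 95.7 and 124 in control and 1065 and 1179 under IFNγ (3.35 ± 0.15, adjusted p = 6.1e-05). Tnfsf10, the death ligand TRAIL, read 22.4 and 16.9 in control and 263 and 214 under IFNγ (3.54 ± 0.24, adjusted p = 4.6e-04). Both genes were at low levels in control libraries. Il12rb1, a receptor chain shared by IL-12 and IL-23, rose by 3.04, Il15ra by 1.39, and the macrophage growth factor Csf1 by 0.87. Il1rn, the IL-1 receptor antagonist, read 163 and 102 in control and 38.3 and 60.4 under IFNγ and fell (-1.41 ± 0.32, adjusted p = 0.064), a call lost without control 1 (adjusted p = 0.26) or IFNγ 1 (0.12). Among 14 checkpoint and adhesion genes, 6 rose and none fell (4, 4, 6 and 4 rose with 1 library left out). Cd274, which encodes the T-cell inhibitor PD-L1, read 40.7 and 35.7 in control and 423 and 562 under IFNγ (3.64 ± 0.20, adjusted p = 1.5e-04). The leukocyte adhesion genes Icam1 and Vcam1 read 489.8 and 325 and 431 and 294 in control and 1514 and 1379 and 692 and 795 under IFNγ, with folds of 1.86 ± 0.18 and 1.06 ± 0.18. Nectin2 rose by 0.69, Cd276 by 0.37 and Cd47, the signal against phagocytosis, by 0.37. Leaving out 1 library ended the calls of Cd276 (control 1, control 2 or IFNγ 2, adjusted p up to 0.34) and Cd47 (control 1, control 2 or IFNγ 2, adjusted p up to 0.38).

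Antiviral interferon-stimulated genes split into those that rose, those that did not pass the test and those that fell. Of 74 tested, 40 rose, 6 fell and 28 were not called (median 0.60), and the counts were 34, 34, 36 and 35 higher and 4, 5, 5 and 6 lower with 1 library left out. With all 24 libraries in the fit they were 27 and 2. The 6 genes that fell had means of 0 to 602 in NPCs and of 607 to 2092 in control cells at day 2. Oas2, an oligoadenylate synthetase that activates RNase L, read 1255 and 1384 in control and 495 and 538 under IFNγ (-1.35 ± 0.088, adjusted p = 4.0e-04) and 0 in both NPC libraries. Rsad2 (viperin), which makes a chain-terminating nucleotide, read 697 and 815 in control and 311 and 356 under IFNγ (-1.18 ± 0.12, adjusted p = 0.0033). Mx2, a dynamin-like antiviral GTPase, read 814 and 903 in control and 376 and 476 under IFNγ (-1.02 ± 0.13, adjusted p = 0.0092). In each of these the IFNγ libraries were both below the control libraries. Ifit1, which binds viral RNA with incomplete caps, read 2154 and 2029.7 in control and 1219.9 and 1485 under IFNγ (-0.63 ± 0.10, adjusted p = 0.019). Mx1 fell by 0.84 and Tdrd7 by 0.59 on the log2 scale. The call of Mx1 did not pass with edgeR, with no low-value filter or with values rescaled to equal totals. Those of Rsad2, Mx2, Ifit1 and Mx1 did not pass with all 24 libraries in the fit. Leaving out single libraries ended the calls of Ifit1 (control 1, adjusted p 0.12) and Mx1 (control 1, control 2 or IFNγ 1, adjusted p up to 0.29). Reads of the Ifit and Oas paralogs may be split among them.

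Well-known members of the same family were not called. Isg15, the ubiquitin-like modifier whose promoter is printed above, read 435 and 396 in control and 415 and 559 under IFNγ, and the groups met. Ifi44 had means of 1431 in control and 1575 under IFNγ, Cmpk2 1475 and 1513, the double-stranded RNA kinase Eif2ak2 3037 and 2897, and the RNA sensors Ddx58 and Ifih1 2606 and 1158 against 2473 and 1282. Members of either outcome were found at high and at low levels. Among members with a mean of at least 500, 24 of 43 rose and 5 fell, and among those under 500, 16 of 31 rose and 1 fell, against 5.69% and 4.47% and 4.32% and 2.35% of all genes tested at those levels.

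The antiviral genes that rose most included enzymes of ISG15 conjugation, ADP-ribosylation and nuclear body proteins. Uba7, the ISG15-activating enzyme, read 175 and 123 in control and 1137 and 1285 under IFNγ (3.03 ± 0.18, adjusted p = 2.1e-04), and Ube2l6, the conjugating enzyme, read 551 and 555 in control and 2569 and 2702 under IFNγ (2.25 ± 0.066, adjusted p = 7.0e-06). The ligase Herc6 rose by 2.39. Parp14, an ADP-ribosyltransferase, read 678 and 620.3 in control and 4391 and 4758 under IFNγ (2.82 ± 0.075, adjusted p = 4.4e-06). Parp10, Parp11, Parp12 and Parp9 rose by 2.21, 1.55, 0.93 and 0.80. Sp140 and Sp110, nuclear body proteins, rose by 4.61 and 4.35 from control means of 5.56 and 3.54. Apol6, an apolipoprotein L, read 16.3 and 6.95 in control and 1393 and 1268 under IFNγ (6.83 ± 0.35, adjusted p = 1.2e-04). Zbp1, a sensor of Z-form nucleic acids, rose by 1.84, the dNTP hydrolase Samhd1 by 1.56, Oas3 by 2.07 and Ifit2 by 1.10, so that members of the Oas and Ifit families went both ways.

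**Figure D4:**
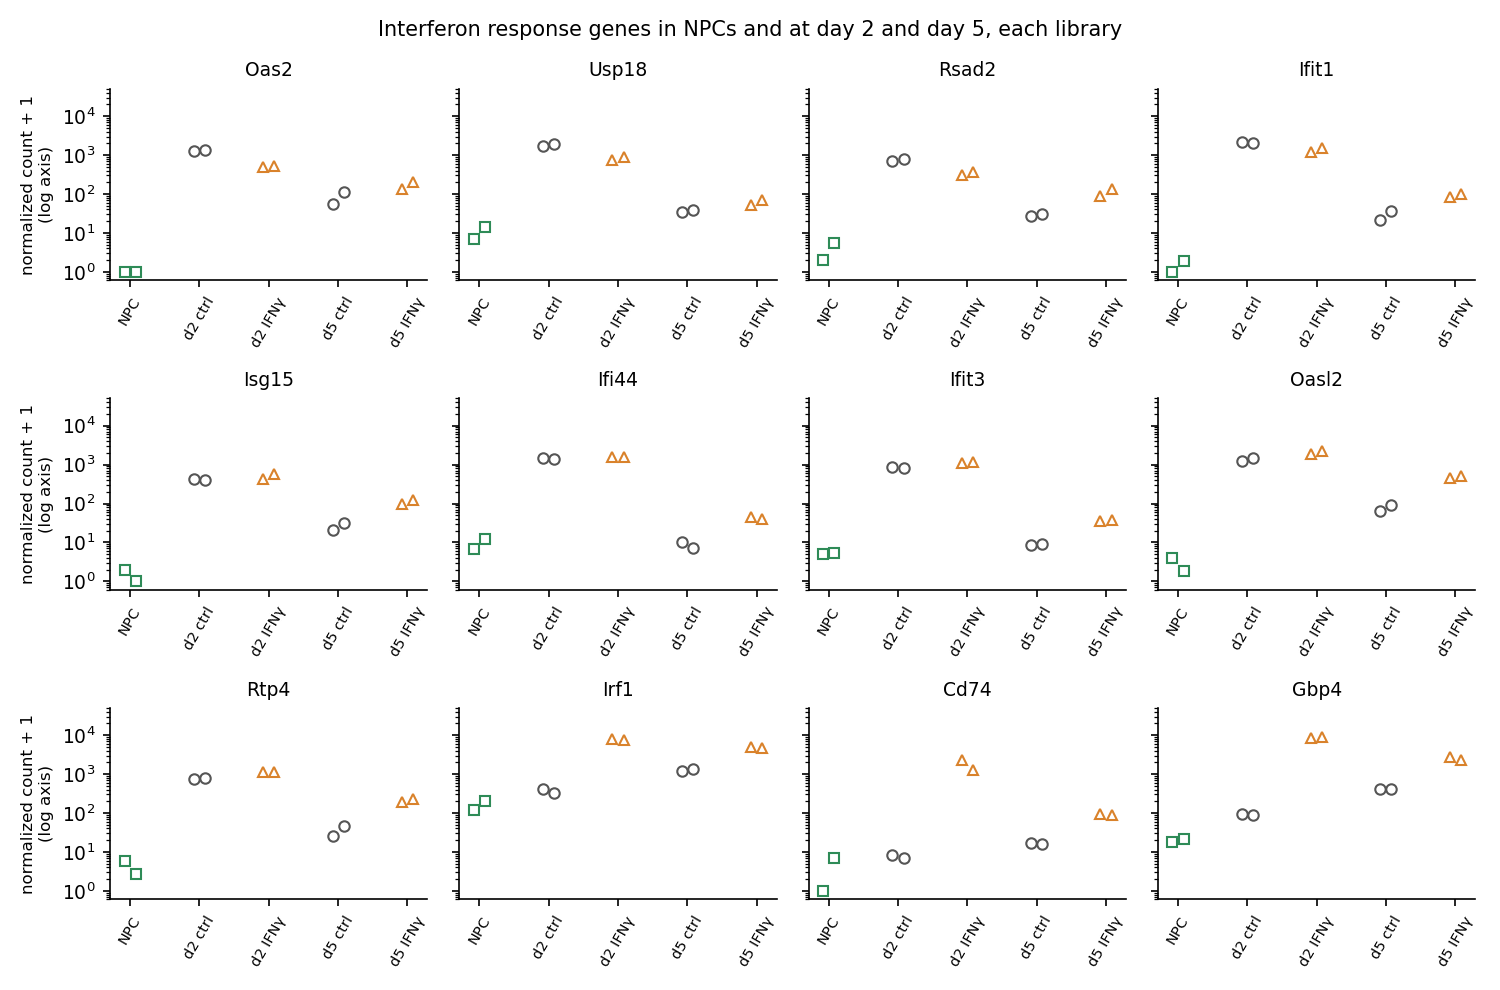
Normalized count + 1 (log axis) of 12 interferon response genes in each library of NPCs (green squares), day 2 and day 5 control cells (gray circles) and IFNγ-treated cells (orange triangles), 2 libraries per population. Oas2, Usp18, Rsad2 and Ifit1 lie lower under IFNγ than in control at day 2 and higher at day 5, whereas Irf1, Cd74 and Gbp4 lie higher under IFNγ on both days.

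Cytosolic DNA and inflammasome sensors rose in 7 of 14 tested members with none lower. Casp1, the inflammatory caspase, read 4.07 and 2.98 in control and 209 and 192 under IFNγ (5.49 ± 0.28, adjusted p = 1.2e-04). Gsdmd, the pore-forming protein that caspases cleave, read 219 and 226 in control and 984 and 1049.8 under IFNγ (2.19 ± 0.094, adjusted p = 4.9e-05). Casp4 rose by 2.15, the cGAMP receptor Tmem173 (STING) by 2.07, and Ifi202b, Ifi204 and Ifi211 by 1.33, 2.05 and 1.94. Cgas, which makes cGAMP, the adaptor Pycard and the sensor Aim2 were not called. Complement genes rose in 7 of 15 tested with none lower. Serping1, the C1 inhibitor, read 685 and 623 in control and 5384 and 5820.2 under IFNγ (3.10 ± 0.074, adjusted p = 2.7e-06), and the C1 proteases C1s1 and C1ra rose by 2.07 and 2.08. C4b rose by 2.52, C2 by 2.22 and C3 by 2.04. Cfp and Cd55 were not called.

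Of 34 tested cell death genes, 8 rose and 1 fell. Mlkl, the executioner of necroptosis, read 26.5 and 28.8 in control and 295 and 271 under IFNγ (3.31 ± 0.18, adjusted p = 1.8e-04), whereas its kinase Ripk3 was not called (103 and 86.7). Casp12 read 179 and 105 in control and 1261 and 1075 under IFNγ (3.07 ± 0.24, adjusted p = 0.0010), and the death receptor Fas read 349 and 335 in control and 906 and 999 under IFNγ (1.47 ± 0.093, adjusted p = 3.4e-04). Bak1 rose by 0.44, Bcl2l11 (BIM) by 0.56 and the caspase-8 inhibitor Cflar by 0.41 (lost without control 2, IFNγ 1 or IFNγ 2, adjusted p up to 0.14). Tnfrsf10b, the TRAIL receptor, fell by 0.47 (adjusted p = 0.070), and 0, 1, 3 and 0 members of the list fell with 1 library left out, with an adjusted p of up to 0.27 for Tnfrsf10b. The p53 targets Cdkn1a, Mdm2, Bbc3 and Perp were not called.

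Metabolic genes known as IFNγ targets rose in 10 of 25 tested and fell in 1. Wars, the tryptophanyl-tRNA synthetase, read 3080.5 and 3222 in control and 16018 and 18038 under IFNγ (2.43 ± 0.070, adjusted p = 6.0e-06), while Ido1, which degrades tryptophan, did not reach the filter. Nos2, the inducible nitric oxide synthase, read 45.8 and 37.7 in control and 169 and 319 under IFNγ (2.45 ± 0.31, adjusted p = 0.0090), whereas Gch1, which makes its cofactor, read 539.7 and 515 in control and 337 and 343 under IFNγ and fell (-0.63 ± 0.10, adjusted p = 0.018), a call lost without control 1 (adjusted p = 0.11). Acod1, the itaconate-producing enzyme, rose by 3.38 from a control mean of 7.03. The aminopeptidase Lap3 and the NAD synthesis enzyme Nampt rose by 0.62 and 0.71 from control means of 8077 and 3172. Serpina3f, Serpina3g and Serpinb9 rose by 3.94, 2.20 and 1.79. Among 18 NF-κB pathway genes, 5 rose and none fell, the adaptor Myd88 and the kinase Ripk2 by 0.89 and 0.78, and Tnfaip2, Tnfaip3 and Bcl3 by 2.08, 1.16 and 0.97. The call of Ripk2 was lost without control 2 (adjusted p = 0.10). The NF-κB subunits Nfkb1, Nfkb2, Rela and Relb were not called.

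Of the lists examined, that of collagens and matrix held the most genes that fell, 16 of 44 (median -0.36). None of them rose with limma or edgeR, 1 rose with DESeq2, and 2 had an unadjusted p under 0.05 for an increase. The count of lower members was 11, 25, 18 and 14 with 1 library left out, so it ranged from 11 without control 1 to 25 without control 2. The 3 chains of type VI collagen fell together. Col6a2 read 997 and 774 in control and 256 and 299.8 under IFNγ (-1.66 ± 0.15, adjusted p = 0.0018), Col6a1 read 2819.8 and 2106 in control and 963 and 989 under IFNγ (-1.32 ± 0.13, adjusted p = 0.0029), and Col6a3 read 2781 and 1850.1 in control and 827 and 852 under IFNγ (-1.43 ± 0.17, adjusted p = 0.0075). Of the fibrillar collagens, Col1a1 read 12559 and 9244 in control and 5763 and 5645 under IFNγ (-0.92 ± 0.13, adjusted p = 0.014), and Col1a2 read 18284 and 12936 in control and 8037 and 7656 under IFNγ (-0.97 ± 0.15, adjusted p = 0.017). Control 1 was above control 2 in each of these 5 genes, and the IFNγ libraries were below both. Col3a1, the other major fibrillar collagen, read 24921 and 15315 in control and 13465 and 8841 under IFNγ and was not called. Col5a1, Col5a2 and Col5a3 fell by 0.73, 0.61 and 1.23 on the log2 scale, Col12a1 by 0.93, elastin (Eln) by 1.51, fibulin 2 (Fbln2) by 1.00, periostin (Postn) by 1.09, and laminin γ1 (Lamc1) by 0.36. Of those named, leave-one-out fits ended the calls of Col5a3 (control 1 or control 2, adjusted p up to 0.15) and Eln (control 1 or control 2, adjusted p up to 0.16). Fibronectin (Fn1), Sparc, Fbn1 and the Timp genes were not called.

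Markers of fibroblasts, the cell type of the feeders, were examined beside these genes. The summed normalized counts of 16 fibroblast markers were 69375 and 47237 in control and 40456 and 33760 under IFNγ, and 32448 and 46767 in NPCs, which also express them. Of 15 tested, 4 fell (Col1a1, Col1a2, Postn and Thy1) and 1 rose (Acta2), and 4, 7, 6 and 4 fell with 1 library left out. The median log2 fold change of this list was -0.44. At an unadjusted p under 0.05, 7 of the 15 were lower and 1 higher, and DESeq2 called 5 lower and 0 higher. The call of Acta2 was lost without control 2 or IFNγ 1 (adjusted p up to 0.14), and 0 or 1 of the 16 markers was at 0 in each library. Col1a1, Col1a2, Col3a1, Dcn, Lum and Postn are on both lists, so Thy1 was the 1 marker that fell and is not itself a matrix gene of the list above. The fibroblast transcription factors Twist1 and Prrx1 and the receptor Pdgfrb were not called, with means of 332, 801 and 698 in control and 337, 876 and 699.7 under IFNγ. Feeders were male, and the reprogramming line has 2 X chromosomes. The sums of 7 Y-linked genes were 254 and 218 in control and 125 and 223 under IFNγ, so the groups overlapped, and 2 or 3 of the 7 genes were at 0 in each day 2 library. In NPC and ESC libraries the sums were 0 to 2.85. Of the 4 Y-linked genes tested, none was called by limma, DESeq2 or edgeR, and 1 had a unadjusted p under 0.05. The part of feeder RNA in the lower matrix values was not tested.

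Outside these lists, Aspn (asporin), a small proteoglycan, read 214 and 125 in control and 33.7 and 26.7 under IFNγ (-2.41 ± 0.30, adjusted p = 0.0084) and was the only called gene with a log2 fold change under −2. Lrrc15, Tmem119 and the matrix metalloproteinase Mmp3 fell by 1.36, 1.34 and 1.25. Means in NPCs were 17.8 for Aspn, 15.1 for Lrrc15 and 0.88 for Mmp3, compared with 169, 649 and 376 in day 2 control cells. Tmem119 read 407 and 350.4 in control and 159.9 and 138 under IFNγ, compared with 174 and 374 in NPCs. It was not among the 13 macrophage and microglia markers summed above. Krt90, a keratin, read 843 and 651 in control and 288 and 254 under IFNγ (-1.45 ± 0.15, adjusted p = 0.0031). Tex15, a germ cell gene, read 679 and 564 in control and 279 and 208 under IFNγ (-1.36 ± 0.17, adjusted p = 0.0082), and Dsg1b, a desmosomal cadherin, fell by 1.63. In these genes, too, both IFNγ libraries were below both control libraries. Krt90, Tex15 and Dsg1b had NPC means of 7.40, 729 and 0. The part of feeder RNA in these decreases was not tested. By size of the change in normalized counts, the largest decrease was of Rmrp, the RNA of RNase MRP, with 47621 and 51534 in control and 37911 and 33698 under IFNγ (-0.47 ± 0.079, adjusted p = 0.024). Among 29 integrin and focal adhesion genes, 5 fell and 3 rose (2, 3, 4 and 6 fell with 1 library left out). Itga6, a laminin receptor chain, read 7145 and 6646 in control and 5305 and 4538 under IFNγ (-0.49 ± 0.084, adjusted p = 0.026), and Itga11, a collagen receptor chain, fell by 1.22, whereas Itga3 rose by 0.58. Itgb1, the common β chain, was not called. For genes with values given here, calls ended with 1 library left out for Dsg1b (control 1 or control 2, adjusted p up to 0.21), Mmp3 (control 1, adjusted p 0.11), Rmrp (IFNγ 2, adjusted p 0.11), Itga3 (control 2 or IFNγ 1, adjusted p up to 0.13), Itga6 (control 1, adjusted p 0.13) and Itga11 (control 1, control 2 or IFNγ 1, adjusted p up to 0.27).

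Of 29 neural progenitor and glial genes, 5 rose and 2 fell (3, 4, 7 and 2 higher with 1 library left out). Slc1a3, the glutamate transporter of radial glia and astrocytes, read 659 and 783 in control and 1626 and 1783 under IFNγ (1.24 ± 0.10, adjusted p = 0.0012). Aldh1l1, an astrocyte enzyme, read 55.0 and 49.6 in control and 119.7 and 159 under IFNγ (1.39 ± 0.22, adjusted p = 0.019), and Ptprz1, Pax6 and Msi1 rose by 0.87, 0.64 and 0.58. Cspg4 (NG2), a proteoglycan of oligodendrocyte precursors, fell by 1.04 (adjusted p = 0.011). Nes, Sox1, Vim and Tubb3 were not called. Among these named genes, 1 library left out ended the calls of Aldh1l1 (control 2, adjusted p 0.10), Msi1 (IFNγ 2, adjusted p 0.12), Pax6 (control 1, IFNγ 1 or IFNγ 2, adjusted p up to 0.20) and Ptprz1 (control 1, control 2 or IFNγ 2, adjusted p up to 0.26). The summed normalized counts of 32 neural markers were 86093 and 94434 in control and 99960 and 104993 under IFNγ.

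Of 29 reprogramming and pluripotency genes, 3 fell and none rose, and all 3 are factors of the cassette. Pou5f1 read 8739 and 8204 in control and 6831 and 6475 under IFNγ (-0.35 ± 0.058, adjusted p = 0.023). Klf4 read 6611 and 6839.6 in control and 5201 and 5421 under IFNγ (-0.34 ± 0.052, adjusted p = 0.018), and Myc read 6177 and 6478 in control and 5128 and 5229 under IFNγ (-0.29 ± 0.052, adjusted p = 0.030). Sox2, the fourth factor, read 5400.3 and 6184 in control and 5647 and 6069.5 under IFNγ (0.019), with overlapping groups. The counts do not separate cassette from endogenous transcripts. With 1 library left out, calls were lost for Pou5f1 (IFNγ 2, adjusted p 0.11) and Myc (control 2, IFNγ 1 or IFNγ 2, adjusted p up to 0.12). The count of lower members was 3, 2, 4 and 1 with 1 library left out and 1 with all 24 libraries in the fit. Nanog, Esrrb, Zfp42 and Tet1 were not called, with Nanog at means of 888 and 704 and Tet1 at 589.6 and 722. Increases in this list numbered 0 by limma, DESeq2 and edgeR, and 2 had an unadjusted p under 0.05.

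No epithelial gene of 25 tested was called in either direction by limma, DESeq2 or edgeR, with 1 higher and 3 lower at a unadjusted p under 0.05. Cdh1 (E-cadherin) had means of 2562 in control and 2413 under IFNγ, and Epcam 230.3 and 214. Of 18 mesenchymal transition genes, 2 rose and 1 fell, the higher ones being Zeb1 and Acta2 (0.57 and 0.63). Snai1, Snai2 and Cdh2 were not called. Of the proliferation genes, 3 of 30 for replication and 4 of 25 for mitosis rose, and none fell with limma, DESeq2 or edgeR (2 and 0 at an unadjusted p under 0.05). Over all genes tested, 5.03% rose and 3.45% fell. Top2a, topoisomerase IIα, rose by 0.39 from a control mean of 21970.4, Cenpf by 0.40 and Cdc45, a helicase subunit, by 0.31. With 1 library left out, 0, 1, 0 and 0 replication and 1, 3, 2 and 1 mitosis genes rose. Of the genes named here, calls were lost with 1 library left out for Zeb1 (control 1 or IFNγ 2, adjusted p up to 0.16), Acta2 (control 2 or IFNγ 1, adjusted p up to 0.14), Cenpf (control 1 or IFNγ 2, adjusted p up to 0.19) and Cdc45 (any library, adjusted p up to 0.22).

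Of 21 ERK targets, 2 rose and 1, Myc, fell (its values are given above). The phosphatase Dusp6 rose by 0.63 (adjusted p = 0.011) and Ccnd1 by 0.31, and Spry2, Spry4, Etv4 and Etv5 were not called. The call of Ccnd1 was lost without IFNγ 1 (adjusted p = 0.11). Of 22 outputs of BMP, TGF-β, Notch and Wnt signaling, 4 rose and 1 fell (2, 2, 1 and 5 rose with 1 library left out). Id3, a BMP target, read 1745 and 1681 in control and 3196 and 2777 under IFNγ (0.80 ± 0.079, adjusted p = 0.0029), Id2 rose by 0.33, and the Wnt targets Axin2 and Sp5 rose by 0.60 and 1.06. The Notch targets Hes1, Hes5 and Hey1 were not called. For genes named here, calls lost in leave-one-out fits were Id2 (control 1, control 2 or IFNγ 1, adjusted p up to 0.24), Axin2 (control 1, control 2 or IFNγ 1, adjusted p up to 0.19) and Sp5 (control 1, IFNγ 1 or IFNγ 2, adjusted p up to 0.21).

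Glycolysis and hypoxia genes rose in 3 and fell in 5 of 25. Ldha, lactate dehydrogenase A, read 17402 and 17053 in control and 13662 and 13702 under IFNγ (-0.33 ± 0.049, adjusted p = 0.015), and Gpi1, Pfkl and the lactate transporter Slc16a1 fell by 0.21, 0.26 and 0.28. Vegfa rose by 0.64 and Egln3 by 0.55, and Slc2a1, Hk2 and Pgk1 were not called. With 1 library left out, 2, 2, 1 and 1 of these genes fell and 3, 0, 2 and 1 rose, the lost calls being Gpi1 (any library, adjusted p up to 0.28), Pfkl (any library, adjusted p up to 0.42), Slc16a1 (control 2, IFNγ 1 or IFNγ 2, adjusted p up to 0.16), Car12 (any library, adjusted p up to 0.28), Pfkp (control 2, IFNγ 1 or IFNγ 2, adjusted p up to 0.22), Vegfa (control 2, adjusted p 0.13) and Egln3 (control 2 or IFNγ 2, adjusted p up to 0.13). Among 23 cholesterol synthesis genes, 3 rose by limma (Lss by 0.37, Stard4 by 0.27 and Srebf2 by 0.20), and 0, 0, 0 and 5 rose with 1 library left out, with adjusted p-values of up to 0.21, 0.31 and 0.35 for Lss, Stard4 and Srebf2. None of 19 stress and unfolded protein response genes was called by limma, DESeq2 or edgeR or had a unadjusted p under 0.05. Hspa5, the chaperone BiP, had means of 20586 and 21871, and Ddit3 175 and 198.

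Genes that rose lay in clusters on the chromosomes. On mm10, 19 windows of 1 Mb by gene start held at least 5 genes that rose, and together they held 132 of the 790 (16.7%) but 2.54% of the genes tested. The windows were chosen by these counts, so this is a description. The largest was the MHC region on chromosome 17, where 18 of 46 tested genes rose between 33915899 and 34898265 (Tapbp to C2) and 12 of 37 between 35262730 and 36129692 (among them H2-D1 and genes of the H2-Q and H2-T groups). On chromosome 11, 11 of 13 tested genes rose between 48861968 and 49652739, among them Irgm1, Tgtp1, Tgtp2 and Ifi47. Gm12185, an uncharacterized gene of this stretch, read 10.2 and 6.95 in control and 928 and 1221 under IFNγ (6.82 ± 0.25, adjusted p = 2.0e-05), and Olfr56, an olfactory receptor gene also within it, had 2 and 3 reads in the control libraries and a ratio of 99.5 (95% counting interval 42.3 to 308). The annotated span of Olfr56 holds both Tgtp1 and Tgtp2, and that of Gm12185 overlaps Tgtp1. Reads of these 2 genes may therefore belong to the Tgtp genes, which was not tested. On chromosome 16, 7 of 8 genes rose between 10420557 and 11074985, where Ciita and Socs1 lie with Dexi, Rmi2, Litaf, Snn and Tvp23a, and the calls of Dexi and Snn were lost without any 1 of the 4 libraries (adjusted p up to 0.27 and 0.24). In the stretch of chromosome 14 from 54906304 to 55610030, Psme1, Psme2 and Irf9 rose with Slc22a17, Efs, Myh7 and Rnf31. Here the calls of Irf9 and Slc22a17 were lost without any 1 of the 4 libraries. Wars lies on chromosome 12 with Gm22079, which overlaps it, and Meg3. Meg3, a noncoding RNA, rose by 0.44. The library kit keeps strand but the strand setting of the counting is not given in the sources used here, so reads of overlapping genes cannot be told apart.

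On the X chromosome, 7 of 558 tested genes rose (1.25%) and 17 fell (3.05%), compared with 5.03% and 3.45% of all genes. Changes ranged from 0.26 (Lamp2) to 1.72 (Cybb, a subunit of the phagocyte oxidase) among those that rose and from −0.23 (Eif2s3x) to −1.54 (Gm1141) among those that fell. The calls of list members lost with 1 library left out were Cybb (control 1, control 2 or IFNγ 2, adjusted p up to 0.30) and Il13ra1 (control 2 or IFNγ 1, adjusted p up to 0.24). Genes of the X-inactivation center were not called, 0 of 6 by limma, DESeq2 and edgeR and 0 with an unadjusted p under 0.05, and Xist read 9450.2 and 9772 in control and 7639 and 11497 under IFNγ. For 316 X-linked genes, the proportion of allelic reads from X mus had a median of 2.12% in day 2 control cells, 1.64% in IFNγ-treated cells and 0.107% in NPCs. It was lower under IFNγ in 181 genes, higher in 105 and exactly equal, as deposited, in 30. There is 1 value per population and its read depth is unknown, so this difference has no replicate check. Feeders were male, and Y-linked sums were 254 and 218 in control and 125 and 223 under IFNγ, against 1.94 and 0 in NPCs. The part of feeder RNA in the X mus proportions was not tested.

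The effect at day 2 was set against that at day 5, when IFNγ was still present and SSEA1+ cells had been sorted, and the difference was tested as an interaction in 8 libraries (limma, 15837 genes). The day 5 effect was above that of day 2 in 32 genes (0.202%) and under it in 75 (0.474%). Of 772 genes that rose at day 2 and were tested, the effect was weaker at day 5 in 73 and stronger in 5. Of 541 genes that fell, it was higher at day 5 in 18 and lower in 0. These genes were chosen by their day 2 calls, and the interaction uses the same day 2 libraries, so the choice favors a smaller effect at day 5 and the splits are a description. Without IFNγ replicate 1 of day 5 the counts were 190 and 269. With 1 of the other libraries left out, they were 10 and 72 (day 2 control 1), 8 and 49 (day 2 control 2), 9 and 42 (day 2 IFNγ 1), 12 and 50 (day 2 IFNγ 2), 26 and 61 (day 5 control 1), 20 and 73 (day 5 control 2) and 17 and 51 (day 5 IFNγ 2). Day and sort cannot be told apart. Antigen presentation and GBP genes made up much of the weaker group, with 7 of 8 GBP, 7 of 14 class I processing, 6 of 16 class I and 6 of 11 class II genes. Cd74 read 16.0 and 15.1 in control and 95.7 and 87.8 under IFNγ at day 5, a difference of effects of -5.35 ± 0.42 (adjusted p = 0.0010). Gbp4 read 404 and 417 and 2761 and 2293 (-3.95 ± 0.14). Irf8 had a fold change of 6.45 at day 5, and the difference did not pass the test (adjusted p = 0.80).

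Of 74 antiviral genes tested, the effect was higher at day 5 in 13, of the 32 such genes in all, and lower in 4, among them Apol6 (-5.99 ± 0.69). Rsad2 read 26.9 and 30.2 in control and 86.2 and 130.5 under IFNγ at day 5, and its effect was higher by 3.03 ± 0.30 (adjusted p = 0.0036). Oas2 read 53.9 and 111 and 132 and 203 (2.42 ± 0.44), and Usp18 read 32.8 and 37.3 and 50.9 and 71.2 (1.92 ± 0.27). These 3 genes, lower under IFNγ at day 2, had control values at day 5 that were far under those of day 2. Irf1 had an effect of 1.88 at day 5 against 4.37 at day 2, a difference of -2.49 ± 0.17.

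**Figure D5:**
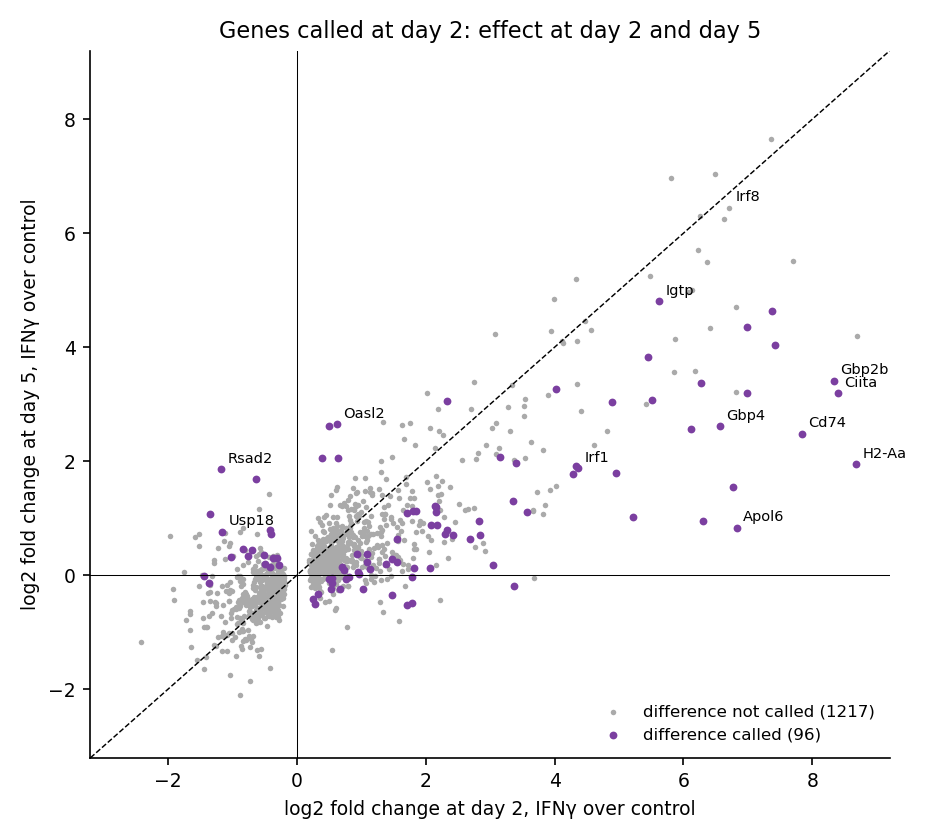
Log2 fold change of IFNγ over control at day 5 (vertical axis) against that at day 2 (horizontal axis) for the genes called at day 2 and tested on both days, with 96 genes whose effects differed in purple and 1217 others in gray. The dashed line marks equal effects. Cd74, Gbp4 and Irf1 lie under the line, Irf8 is close to it, and Rsad2 and Usp18 lie in the upper left, negative at day 2 and positive at day 5.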

How the data were processed

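RNA-seq was performed on total RNA (TruSeq Stranded Total RNA kit). The authors mapped reads with STAR, filtered for mapping bias by WASP, on an mm10 genome masked at strain SNPs and counted them per gene with HTSeq 0.6.1, whose strand setting is not given in the sources used here. The deposited signal values are gene counts that the authors divided by DESeq2 size factors, and 100% of the day 2 values came out as whole reads (within 0.01) once multiplied back. The deposited X mus fraction per gene is the authors' value for a population, with depth unknown.

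Gene symbols and coordinates were from GENCODE vM21 on GRCm38/mm10, which held 95.2% of the IDs. Genes with a mean above 10 over the 4 day 2 libraries were tested with limma 3.58.1 (R 4.3.3) on log2(value + 1), 2 control against 2 IFNγ libraries, with Benjamini-Hochberg adjusted p under 0.1, the threshold of the study. Such fold changes understate those of low genes. The difference between days was the interaction in 8 libraries. As alternatives, edgeR 4.0.16 and DESeq2 1.42.0 on the recovered reads, a pseudocount of 0.1, no filter, equal totals, all 24 libraries, a replicate block and leaving out each library were tried. Scripts were tested on simulated data. Intervals of low counts are exact and cover counting error only, since reads carry no molecular identifiers.

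Named were the 25 largest increases and the 25 largest decreases in log2 fold change among called genes with a group mean of at least 100, 10 genes with the largest difference in normalized counts each way, called genes of any 1 Mb window with at least 5 higher, the 10 largest interactions each way, and list members, from which the text gives examples. The members and lists were chosen with earlier results of these data known. Some members are counted in their lists but not reported here by name.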

Additional observations from a re-analysis of the deposited data

Results flagged for a closer look

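The results below stand out because the effect of IFNγ differed between day 2 and day 5 by a test of the difference itself, the interaction of day and treatment in limma at an adjusted p under 0.1. The day 5 effect was above the day 2 effect in 32 genes and under it in 75. The day 5 cells were selected for SSEA1 and the day 2 cells were not. Sums of fibroblast and Y-linked markers were also lower at day 5. Day, sort and the amount of feeder RNA therefore cannot be told apart. The differences are log2 effects, day 5 minus day 2, with 2 libraries per group.

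Among genes whose mean reached 100 in some group and whose effect was higher at day 5, the 10 largest differences were 3.03 for Rsad2, 2.42 for Oas2, 2.33 for Ifit1, 2.16 for Ifi44, 2.11 for Rtp4, 2.03 for Oasl2, 1.92 for Usp18, 1.87 for Isg15, 1.84 for H2-T24 and 1.65 for Ifit3. H2-T24 is on the class I list, Usp18 on the feedback list and the others on the antiviral list. Among the genes with the lower effect at day 5, the 10 largest were −6.72 for H2-Aa, −5.99 for Apol6, −5.36 for H2-Ab1, −5.35 for Cd74, −5.22 for H2-Eb1, −5.21 for Ciita, −4.91 for Gbp2b, −4.19 for H2-DMb1, −3.95 for Gbp4 and −3.79 for Gbp11. These are 6 class II genes, 3 GBP genes and Apol6. The transcription factor gene Irf1 had the lower effect at day 5 (−2.49).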

How the results depend on the processing

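No called gene changed sign under any alternative. Of the 790 genes higher and 542 lower, edgeR (784 and 561 calls on the recovered reads) shared 776 and 534, DESeq2 (655 and 461) 610 and 416, and a fit of all 24 libraries 565 and 312, with 0 calls in the opposite direction. With no low-value filter, which adds genes to the adjustment, the calls numbered 481 higher and 212 lower. Leaving out 1 library gave 471 to 595 higher and 170 to 378 lower from fewer samples. The labels do not say whether same-numbered libraries were prepared together. Same-numbered libraries correlated at 0.406 in their deviations from the group means at day 2. This was the highest value over all pairs of groups, the lowest being -0.159. A fit with the replicate block called 2652 genes higher (16.9%) and 2343 lower (14.9%), all 790 and 542 among them. With the block, 18 of 23 cholesterol genes and 18 of 29 neural genes rose, instead of 3 and 5. Collagen and matrix genes fell in 35 of 44 instead of 16, and 4 epithelial genes rose and 6 fell instead of 0. The GBP and IRG lists had 8 and 12 genes higher under every alternative, and class I and class I processing had 11 and 11 except under the block (14 and 12), whereas the 40 and 6 antiviral genes became 27 and 2 with all 24 libraries. Counts of the difference between days were 20 above without the filter, 134 above and 156 under with all 24 libraries, 59 above with the replicate block, and 8 to 190 above and 42 to 269 under with 1 library left out. The cause was not tested. The X mus proportion, a median of 2.12% in control and 1.64% under IFNγ, was 5.51% and 4.99% as a mean over genes and 2.13% and 1.67% over genes that passed the filter. Shares of promoters with a motif were not compared between genes higher and lower, since the promoter table held 71.6% of the genes tested, so the alternatives planned for them were not run. DESeq2 gave no adjusted p for 35 combinations of gene and setting, which were left out.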
